A study of Rattus norvegicus with 22 samples.

Results

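The 9 genes described here are cell cycle inhibitors and genes used as markers of cellular senescence, taken by name from the 17334 genes listed for each rat. They are Cdkn1a, Cdkn1b and Cdkn1c, the Cip/Kip inhibitors p21, p27 and p57, Cdkn2a, Cdkn2b and Cdkn2c, the INK4 inhibitors p16, p15 and p18, together with Mdm2, Lmnb1 and Gdf15. All 9 were listed in each of the 22 rats and all 9 passed the filter on low counts that left 12867 genes for testing. RNA of the left kidney was sequenced from PKD/Mhm (Cy/+) rats aged 8 months, all male according to the methods of the study. The 4 groups were 6 untreated rats, 6 rats given human adipose-derived stromal cells (ASC) by intraperitoneal injection (i.p. ASC), 6 given ASC by intravenous injection (i.v. ASC) and 4 given the medium conditioned by such cells (ASC-derived CM). Injections were given once a month over 6 months. The label of the ASC-derived CM group gives no route, and the sources of the study name both the intravenous and the intraperitoneal route for it. Every rat, the untreated ones included, carried the heterozygous Cy mutation, a missense change of Anks6 that causes cystic kidneys, so no rat here had non-cystic kidneys. The ASC were human, the recipients were rats, and the counts were assigned to rat genes. Rats given ABCB5+ cells, and further rats given ASC-derived CM, are not analysed here.

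A dividing cell passes from G1 into S phase when cyclin-dependent kinases phosphorylate the retinoblastoma protein. INK4 proteins bind the kinases CDK4 and CDK6, while Cip/Kip proteins bind complexes of cyclins with their kinases. Cells under lasting stress can leave the cycle for good, a state called senescence, in which p21 and p16 are commonly high, lamin B1 is commonly low and many factors are secreted. In cystic kidney disease the tubule cells that line cysts divide more than those of normal tubules, and p21 and p57 are known in the kidney as products of injured tubule cells and of podocytes, respectively, the latter being the cells that wrap the glomerular capillaries.

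Promoter sequences were taken from RefSeq (GRCr8, 250 bases before to 50 bases after a start), which held 8 of the 9 genes, all but Cdkn1c. They are given for the genes whose variation is described below, with a searched motif in capitals. In the Cdkn1a window at chr20:7150682-7150981 (plus strand) the capitals mark 2 decamers of a p53 site, with 12 bases between them and 1 mismatch to the consensus in all, the first of which begins 223 bases before the start. Matches with at most 1 mismatch and a gap of up to 13 bases were found in 335 of all 33469 promoters, 1.001%. Cdkn1a was the single gene with one among the 8 searched. In the windows of the neighbouring genes Cdkn2a (chr5:109107907-109108206, minus strand) and Cdkn2b (chr5:109134806-109135105, minus strand) the capitals mark GGGCGG, the core of an SP1 site, or its reverse complement. This motif was in 33.1% of all promoters and in 7 of the 8 genes searched. In the Lmnb1 window (chr18:52373689-52373988, plus strand) they mark TTTGAA, the motif of cell cycle homology regions found at many genes of cell division. TTTGAA was in 18.3% of all promoters and in 3 of the 8 genes searched. Both strands were searched, and none of the capitals of a window belong to 2 motifs. A match describes letters and does not show that a factor binds.
Cdkn1a: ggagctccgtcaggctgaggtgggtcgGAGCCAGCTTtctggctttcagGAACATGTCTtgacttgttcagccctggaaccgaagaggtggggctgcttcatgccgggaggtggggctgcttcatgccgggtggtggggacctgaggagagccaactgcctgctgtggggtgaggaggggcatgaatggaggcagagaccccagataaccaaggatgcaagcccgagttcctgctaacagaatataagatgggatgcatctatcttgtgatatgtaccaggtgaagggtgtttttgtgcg
Cdkn2a: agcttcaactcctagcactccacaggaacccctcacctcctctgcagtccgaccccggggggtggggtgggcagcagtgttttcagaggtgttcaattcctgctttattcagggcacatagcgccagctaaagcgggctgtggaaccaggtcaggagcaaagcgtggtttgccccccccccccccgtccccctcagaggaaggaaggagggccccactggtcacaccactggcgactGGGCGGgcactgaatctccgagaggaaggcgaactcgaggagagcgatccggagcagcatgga
Cdkn2b: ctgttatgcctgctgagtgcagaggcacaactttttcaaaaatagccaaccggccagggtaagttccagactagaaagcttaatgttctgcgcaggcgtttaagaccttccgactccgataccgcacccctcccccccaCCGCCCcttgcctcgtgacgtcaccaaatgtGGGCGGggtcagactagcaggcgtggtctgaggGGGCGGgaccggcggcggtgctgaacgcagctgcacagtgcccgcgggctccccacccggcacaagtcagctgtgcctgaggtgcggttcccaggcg
Lmnb1: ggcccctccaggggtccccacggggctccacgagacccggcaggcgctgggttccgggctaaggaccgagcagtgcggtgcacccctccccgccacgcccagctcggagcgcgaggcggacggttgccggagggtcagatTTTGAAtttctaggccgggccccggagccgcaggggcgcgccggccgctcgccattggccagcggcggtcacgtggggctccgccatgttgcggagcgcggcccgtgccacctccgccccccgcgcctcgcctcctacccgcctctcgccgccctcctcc

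Total counts ran from 12195682 to 14734772 per rat, and gene counts of any pair of rats had a Spearman correlation of at least 0.97. Within groups, no pair agreed within sampling noise, with chi-square per gene from 6.77 to 128. Kidney markers were present in every rat, with mean log2 CPM (the count relative to the library total, scaled with TMM factors) of 7.24 to 8.86 for 9 proximal tubule genes and 7.65 to 9.51 for 5 thick ascending limb genes. Some marker scores had unlike group means with overlapping ranges, and these differences between groups were not tested. The score of 7 podocyte genes averaged 6.13 in untreated rats (5.70 to 6.59), 5.79 after i.p. ASC (5.44 to 6.31), 5.26 after i.v. ASC (4.46 to 6.32) and 5.33 after ASC-derived CM (4.32 to 6.57). In 5 rats, numbers 2 and 11 of ASC-derived CM and numbers 3, 9 and 13 of i.v. ASC, it lay below a gap of 0.661 that no other rat filled. A score of 5 urothelial genes ran from -1.13 to 6.23 in i.v. ASC rats and from -1.35 to 1.16 in all others. The i.v. ASC rats below the podocyte gap, 3, 9 and 13, had urothelial scores of 5.20, 6.23 and 3.94. In ASC-derived CM rats 2 and 11, also below it, the urothelial score was -0.97 and -1.22.

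Per transcript length the 9 genes differed widely in level. On the TPM scale, which accounts for transcript length, the means over the 22 rats were 69.3 for Gdf15, 68.1 for Cdkn1b, 47.7 for Cdkn1a, 46.7 for Cdkn1c, 32.1 for Mdm2, 21.7 for Cdkn2c, 9.38 for Lmnb1, 7.51 for Cdkn2b and 3.48 for Cdkn2a. Gdf15 and Cdkn1b, with SDs of 15.5 and 9.33 TPM over rats, did not differ in this order beyond their spread, and the same holds for Cdkn1a and Cdkn1c, with SDs of 11.95 and 17.4, and for Lmnb1 and Cdkn2b, with SDs of 2.32 and 2.82. The mean of Gdf15 lay at percentile 81.6 of the tested genes and that of Cdkn2a at percentile 16.6. The steadiest genes were Cdkn2c and Cdkn1b, whose highest rat had 1.49 and 1.52 times the TPM of the lowest. The most variable were Cdkn2a at 14.2 times, Cdkn2b at 4.54 times and Cdkn1c at 4.36 times. Part of the range of Cdkn2a is counting error, since only 3 to 43 of its fragments were counted in a rat. A count of 3 has an exact Poisson 95% interval of 0.619 to 8.77 and a count of 43 one of 31.1 to 57.9. Within groups the SD of Cdkn1c was 0.48 on the log2 CPM scale, at percentile 95.1 among genes of like level, and that of Cdkn1b was 0.096.

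**Figure D1:**
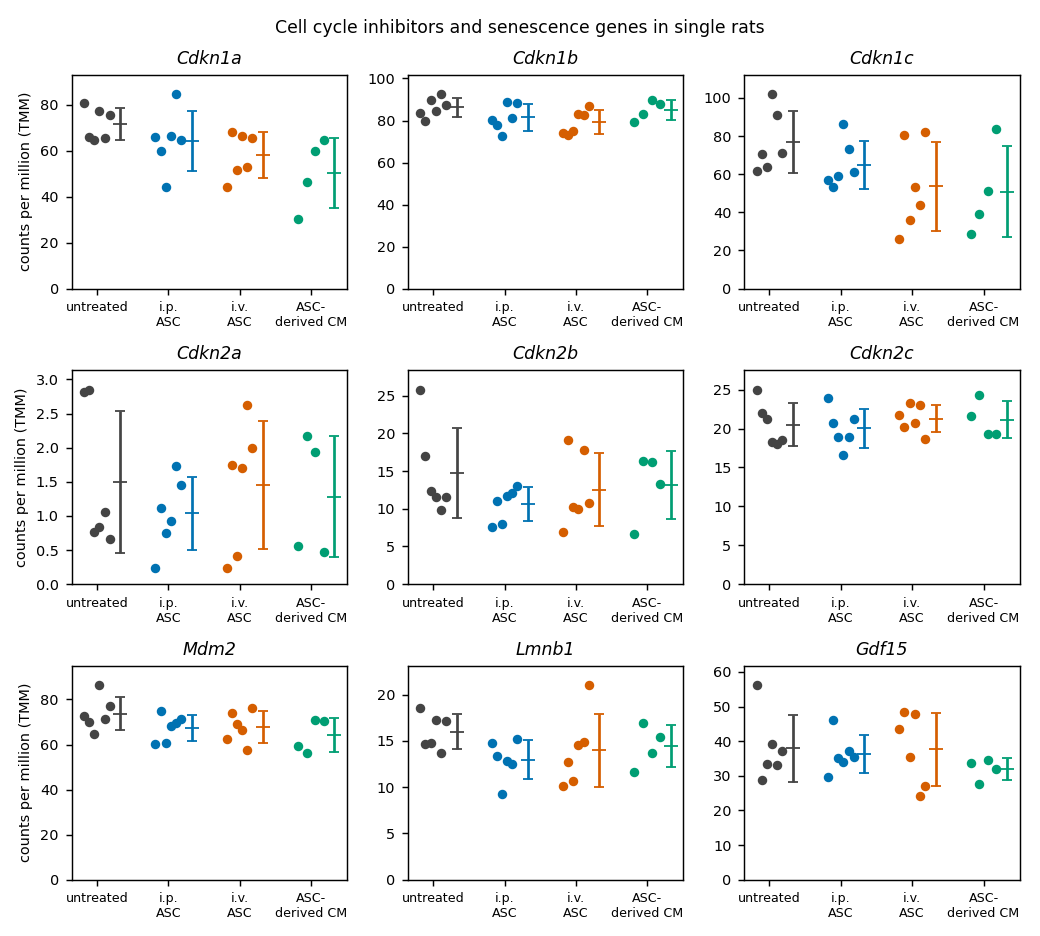
CPM (TMM-scaled, linear axes from 0) of the 9 genes in each of 22 rats, by group; the bars give the mean ± SD of 6, 6, 6 and 4 rats. The 4 ASC-derived CM rats sit at 30.4 to 64.4 for Cdkn1a, all below the untreated rats, and the groups overlap for the other 8 genes.

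No difference of the 9 genes between treated and untreated rats passed the test against the spread between rats. The question was whether the treatments moved genes that hold cells out of the cycle. At an adjusted p below 0.05, the quasi-likelihood test of edgeR, adjusted by Benjamini-Hochberg over all genes, called 0 of the 9 in each of the 3 comparisons, where it called 0% of all tested genes. A test of any difference among the 4 groups also called 0 of the 9, against 0.0855% of all genes (11 genes). DESeq2 called 0 of the 9 in every comparison, while calling 0, 22 and 5 of all genes after i.p. ASC, i.v. ASC and ASC-derived CM. At an unadjusted p below 0.05, edgeR listed 0 of the 9 after i.p. ASC, 1 after i.v. ASC (Cdkn1b) and 2 after ASC-derived CM (Cdkn1a and Mdm2). The same threshold was passed by 3.89%, 8.81% and 6.60% of all tested genes.

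The differences of the 9 genes were mostly below 0, and how many were below 0 depended in part on single rats and on the fit. The estimate was below 0 for 9 of 9 genes after i.p. ASC, with a median log2 fold change of -0.16, for 8 of 9 after i.v. ASC, with a median of -0.13, and for 8 of 9 after ASC-derived CM, with a median of -0.20. Over all tested genes 53.8%, 52.5% and 50.9% were below 0, and the medians were -0.014, -0.011 and -0.0029. The 3 comparisons share the 6 untreated rats, so the 3 counts are not separate evidence. Without untreated rat 1 the counts were 7, 6 and 6 of 9, and without ASC-derived CM rat 2 the count for that group was 5. Without i.v. ASC rat 9 the count after i.v. ASC was 6. A fit with 1 surrogate variable gave 7, 6 and 6 of 9. With the podocyte score as a covariate, a fit chosen after seeing the data, 8, 6 and 8 of the 9 were below 0. On the TPM scale, by limma on log2(TPM + 1), 9 of 9 were below 0 in each comparison. The median of all genes moved there to -0.098, -0.12 and -0.066, and differences on that scale are to be read against these medians.

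**Figure D2:**
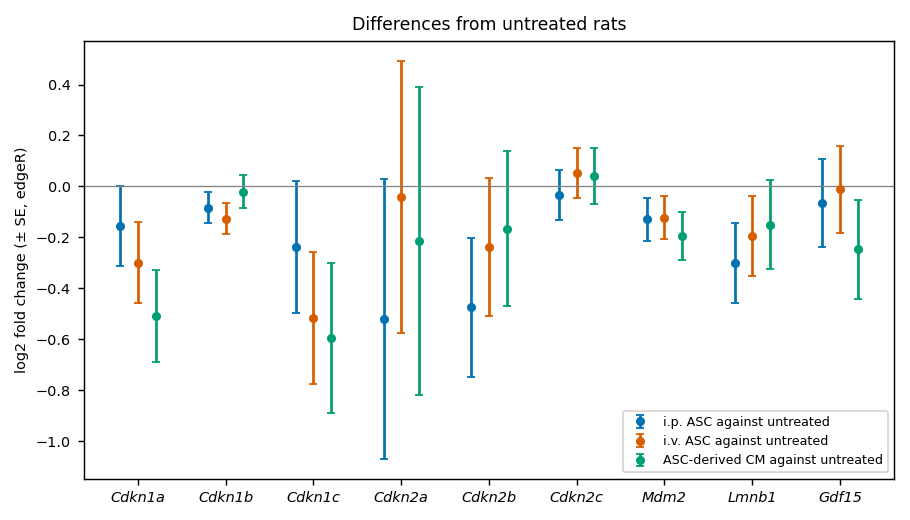
Log2 fold change against untreated rats (vertical axis, edgeR estimate ± SE) of the 9 genes in the 3 comparisons. Most points lie below 0, the lowest for Cdkn1c after ASC-derived CM at -0.59, and the widest error bars are those of Cdkn2a.

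Among the Cip/Kip inhibitors, Cdkn1a (p21), a p53 target that halts cells after damage, gave the clearest separation of a group. It was at 64.6 to 80.5 CPM in untreated rats (median 70.7), 44.2 to 84.6 after i.p. ASC (median 65.2) and 44.2 to 68.0 after i.v. ASC (median 59.2). After ASC-derived CM it was at 30.4, 46.5, 59.6 and 64.4 CPM in rats 2, 11, 19 and 21. All 4 ASC-derived CM rats were thus below all 6 untreated rats, the highest of them by a narrow margin, a pattern shown by 0.987% of all tested genes (127 genes). In the comparisons of i.p. ASC and i.v. ASC, in which 0.124% and 0.155% of all genes had every treated rat below every untreated one, no gene of the 9 was separated. The log2 fold change of Cdkn1a after ASC-derived CM was -0.51 (SE 0.18), with an edgeR adjusted p of 0.711. It was -0.34 without rat 2 and -0.65 without rat 21 of that group. On the TPM scale the highest ASC-derived CM rat, at 51.8, overlapped the untreated rats, the lowest of which was at 48.7. After i.v. ASC the estimate was -0.30 (SE 0.16, adjusted p = 0.523) and after i.p. ASC it was -0.16 (SE 0.16, adjusted p = 0.823), both by edgeR.

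Over all 22 rats Cdkn1a was lower where the markers of the thick ascending limb were higher, a relation that passed at 0.05 only with the 5 rats below the podocyte gap included. Its log2 CPM had r = -0.78 with that score over 22 rats (permutation p = 1e-05, the smallest that 100000 permutations can give, adjusted p = 0.00048 over 144 relations; rho = -0.72, adjusted p = 0.00612). Without the 2 rats farthest from the median score r was -0.76. Those 5 rats had 30.4 to 52.9 CPM of Cdkn1a, against 44.2 to 84.6 in the other 17, and within the 17 r was -0.63 (permutation p = 0.00505, adjusted p = 0.0597; rho = -0.42, adjusted p = 0.347). Cdkn1a also went with the endothelial score over 22 rats, at r = 0.73 (permutation p = 0.00016, adjusted p = 0.0021; rho = 0.68, adjusted p = 0.00965), and at r = 0.56 within the 17 (adjusted p = 0.0677). With podocyte genes its r was 0.79 over 22 rats (permutation p = 2e-05, adjusted p = 0.00072; rho = 0.65, adjusted p = 0.0149). That r was 0.69 without the 2 farthest rats, and it was 0.41 within the 17 (adjusted p = 0.215). The thick ascending limb score averaged 8.27 in untreated rats, 8.71 after i.p. ASC, 8.73 after i.v. ASC and 8.77 after ASC-derived CM, so it was higher where the estimates of Cdkn1a were lower, and its part in the difference was not tested. In a piece of whole kidney, fewer cells of a type and less RNA per cell cannot be told apart. With the podocyte score as a covariate the difference after ASC-derived CM was -0.29 (SE 0.13, edgeR adjusted p = 0.907), against -0.51 without it. Over 22 rats Cdkn1a also went with the mean of 23 other p53 target genes, at r = 0.70 (permutation p = 0.0005, adjusted p = 0.00554) and rho = 0.61 (adjusted p = 0.0253). The 5 rats below the podocyte gap had p53 target scores of 4.65 to 4.79, in a range of 4.65 to 4.97 over all rats. The relation includes them and was not tested within the other 17. The genes most like Cdkn1a, after centring on group means over 22 rats, were Ets2 (r = 0.90), an ETS family transcription factor, St3gal1 (r = 0.88), a sialyltransferase, and Nsg1 (r = 0.87).

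Cdkn1c (p57), an imprinted inhibitor that is known to be made by mature podocytes, followed the podocyte markers. It was at 61.6 to 102.1 CPM in untreated rats (median 70.9), 53.3 to 86.4 after i.p. ASC (median 59.9) and 26.0 to 81.9 after i.v. ASC (median 48.6). The ASC-derived CM rats 2, 11, 19 and 21 had 28.7, 39.3, 51.5 and 83.8 CPM. The groups overlapped, and 4 of 6 i.p. ASC, 4 of 6 i.v. ASC and 3 of 4 ASC-derived CM rats lay below the lowest untreated rat. The log2 fold change was -0.59 (SE 0.29, edgeR adjusted p = 0.711) after ASC-derived CM, -0.52 (SE 0.26, adjusted p = 0.523) after i.v. ASC and -0.24 (SE 0.26, adjusted p = 0.829) after i.p. ASC. It was -0.94 after ASC-derived CM without rat 21 of that group, and -0.14 after i.p. ASC without untreated rat 22.

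The 5 rats below the gap in the podocyte score held the 5 lowest values of Cdkn1c, 26.0 to 43.8 CPM, against 51.5 to 102.1 CPM in the other 17. Because those 5 rats stood apart, the correlation was taken within the other 17. There Cdkn1c had r = 0.88 with the score (permutation p = 1e-05, the smallest possible, adjusted p = 0.00045 over 45 relations) and rho = 0.88 (adjusted p = 0.0009), and r = 0.84 without the 2 farthest rats. On the TPM scale r was 0.92. Of the 9 genes, Cdkn1c was the only one whose relation with the podocyte score passed at 0.05 within these rats. The adjusted permutation p was 0.0597 for both Mdm2 (r = 0.61) and Cdkn2c (r = -0.58). For Mdm2 rho was 0.45 (adjusted permutation p = 0.347). For Cdkn2c r was 0.053 on the TPM scale, so its relation with the podocyte score rested on the scale. With the podocyte score as a covariate the differences of Cdkn1c were -0.13 (SE 0.11) after ASC-derived CM, 0.0036 (SE 0.10) after i.v. ASC and 0.0023 (SE 0.094) after i.p. ASC, with edgeR adjusted p of 0.954, 0.9995 and 0.9997. Cdkn1c and the score had r = 0.95 over 22 rats, and the mean score was lower in each treated group. This fit, chosen after seeing the data, therefore cannot separate the 2, and the part of the score in the difference was not tested. The genes most like Cdkn1c after centring were Nphs1 (r = 0.97), which codes for nephrin of the podocyte slit diaphragm, Ptpro (r = 0.96), a podocyte receptor phosphatase, and Clic3 (r = 0.95). Both Nphs1 and Ptpro belong to the 7 genes of the podocyte score. Cdkn1c also rose with the endothelial score, at r = 0.81 over 22 rats (permutation p = 1e-05, adjusted p = 0.00048; rho = 0.81, adjusted p = 0.00048). That r was 0.61 within the 17 (adjusted p = 0.0597). Against the thick ascending limb score it had r = -0.69 over 22 rats (permutation p = 0.00043, adjusted p = 0.00516) and -0.35 within the 17 (adjusted p = 0.300). With the urothelial score Cdkn1c had r = -0.55 over 22 rats (permutation p = 0.00803, adjusted p = 0.0329) and rho = -0.35 (adjusted p = 0.243). That r was -0.19 without the 2 farthest rats. Among 8 tested imprinted neighbours of Cdkn1c, 0 were called in each comparison by edgeR. Of these, Kcnq1, a potassium channel gene, differed by -0.47 (SE 0.18) after ASC-derived CM, with an edgeR adjusted p of 0.711.

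**Figure D3:**
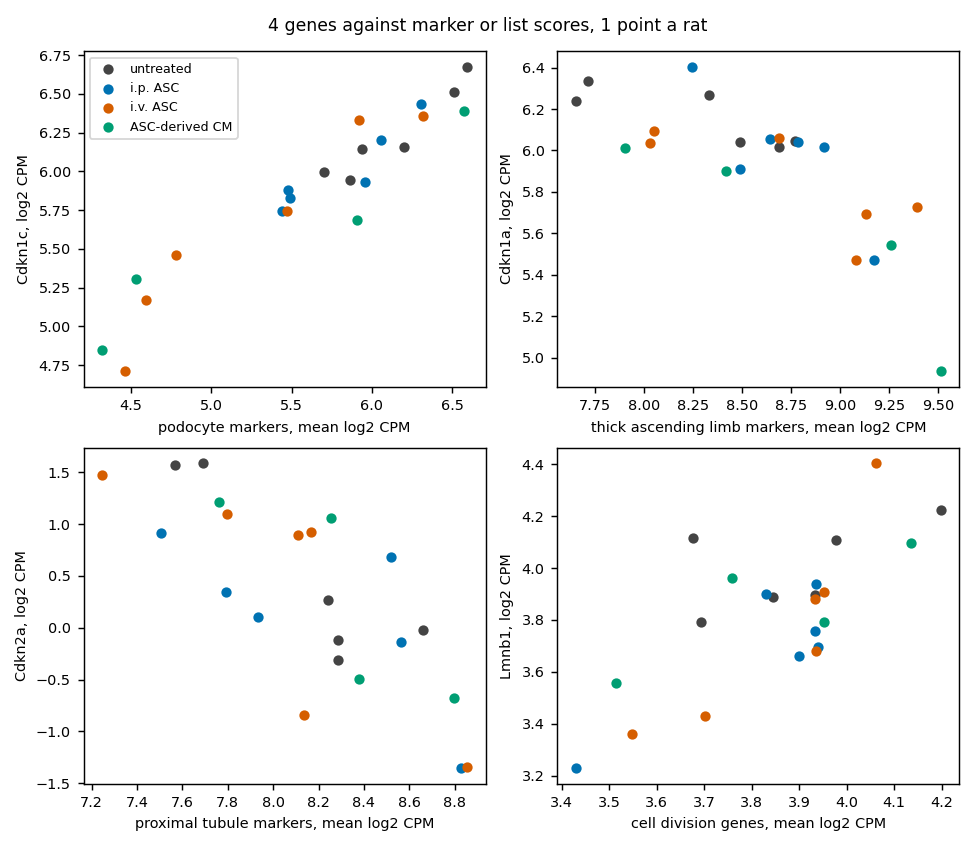
Log2 CPM of 4 genes (vertical axes) against the mean log2 CPM of a marker list or of cell division genes (horizontal axes), with 1 point for each of 22 rats coloured by group. Cdkn1c rises with the podocyte score, with 5 rats at scores of 4.32 to 4.78 set apart from the others, Cdkn1a falls with the thick ascending limb score, Cdkn2a falls with the proximal tubule score and Lmnb1 rises with cell division genes.

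Cdkn1b (p27), which restrains cyclin E and cyclin A kinases in resting cells and is controlled largely through protein breakdown, had the smallest SD within groups of the 9. It ranged from 80.0 to 92.6 CPM in untreated rats, 72.4 to 89.0 after i.p. ASC, 73.3 to 87.1 after i.v. ASC and 79.5 to 89.8 after ASC-derived CM. Its log2 fold change after i.v. ASC was -0.13 (SE 0.059, edgeR adjusted p = 0.523), with 3 of 6 rats below the lowest untreated one. Its estimates were -0.083 after i.p. ASC and -0.020 after ASC-derived CM. The tested genes of p53 and p27 turnover, ubiquitin ligase parts among them, held 0 calls of 9 in each comparison, with median log2 fold changes of 0.059, 0.059 and -0.0016. Skp1, a subunit of the ligase that marks p27 for breakdown, was at 0.34 (SE 0.20, edgeR adjusted p = 0.771) after i.p. ASC. Over 22 rats Cdkn1b rose with the podocyte score, at r = 0.57 (permutation p = 0.00609, adjusted p = 0.0292), and with the endothelial score, at r = 0.59 (adjusted p = 0.0206). Within the 17 rats above the podocyte gap these were 0.56 (adjusted p = 0.0663) and 0.52 (adjusted p = 0.0822). With collecting duct principal cell genes r was -0.54 over 22 rats (adjusted p = 0.0351), and -0.16 on the TPM scale. Most like Cdkn1b were Tab2 (r = 0.87), Crtc1 (r = 0.84) and Kat6a (r = 0.84).

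The INK4 genes Cdkn2a and Cdkn2b, which are neighbours in the genome, varied together over rats. Cdkn2a codes for p16 and, in another reading frame, for ARF, which binds MDM2, and a count per gene does not separate them. Cdkn2a was at 0.655 to 2.85 CPM in untreated rats (median 0.944), 0.238 to 1.73 after i.p. ASC (median 1.02) and 0.242 to 2.62 after i.v. ASC (median 1.72). After ASC-derived CM it was at 0.557, 2.17, 1.94 and 0.474 CPM in rats 2, 11, 19 and 21. Every group thus held both low and high rats, and the groups overlapped throughout. Cdkn2b (p15), an inhibitor that TGF-beta induces in many cells, was at 9.86 to 25.8 CPM in untreated rats (median 11.98), 7.62 to 13.1 after i.p. ASC (median 11.4) and 6.95 to 19.1 after i.v. ASC (median 10.5). After ASC-derived CM it was at 6.69, 16.3, 16.2 and 13.3 CPM in the same order of rats. The top value of Cdkn2b, 25.8, was that of untreated rat 1.

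The fold changes of this pair were small beside their errors. After i.p. ASC they were -0.52 (SE 0.55) for Cdkn2a and -0.47 (SE 0.27) for Cdkn2b, with edgeR adjusted p of 0.826 and 0.771. Without untreated rat 1 they were -0.23 and -0.24. After i.v. ASC the estimates were -0.040 (SE 0.53) and -0.24 (SE 0.27), of which the value of Cdkn2b became -0.0004 without untreated rat 1, and after ASC-derived CM -0.21 (SE 0.61) and -0.17 (SE 0.30). The estimated count of Cdkn2b was not whole in 22 of 22 rats, so part of its count rests on reads that the counting split, against 5 of 22 for Cdkn1c and 0 for the other 7 genes. The tested neighbour of the pair, Mtap, an enzyme of methionine salvage, was at -0.31 (SE 0.12, edgeR adjusted p = 0.771) after i.p. ASC.

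Over 22 rats the log2 CPM of Cdkn2a and Cdkn2b had r = 0.77 (permutation p = 5e-05, adjusted p = 0.0009 over 36 pairs) and rho = 0.72 (adjusted p = 0.00576), with r = 0.68 without the 2 farthest rats and r = 0.80 on the TPM scale. Within the 17 rats above the podocyte gap r was 0.67 (permutation p = 0.00344, adjusted p = 0.124). Such relations over 22 rats were not limited to this pair. Cdkn1a with Cdkn1c had r = 0.78 (permutation p = 5e-05, adjusted p = 0.0009), and 0.37 within the 17 (adjusted p = 0.464). Cdkn1c with Mdm2 had r = 0.66 (adjusted p = 0.00765) and Cdkn1b with Lmnb1 had r = 0.62 (adjusted p = 0.0124). Cdkn1c with Cdkn2c had r = -0.62 (adjusted p = 0.0124), and -0.20 on the TPM scale. Both Cdkn2a and Cdkn2b also fell as the proximal tubule score rose. The relation had r = -0.79 for Cdkn2a (permutation p = 4e-05, adjusted p = 0.00115; rho = -0.79, adjusted p = 0.00144; r = -0.77 without the 2 farthest rats). It had r = -0.59 for Cdkn2b (permutation p = 0.00376, adjusted p = 0.0201; rho = -0.52, adjusted p = 0.0669). The lymphocyte score went the other way, with r = 0.63 for Cdkn2a (permutation p = 0.00128, adjusted p = 0.00878; rho = 0.65, adjusted p = 0.0149; r = 0.56 without the 2 farthest rats). Group means of the proximal tubule score were 8.05 to 8.30, so this score did not separate the groups. Over 22 rats Cdkn2b rose with the mean of 24 cell division genes, at r = 0.73 (permutation p = 9e-05, adjusted p = 0.00173) and rho = 0.65 (adjusted p = 0.0149), although p15 halts the cycle. Within the 17 rats above the podocyte gap r was 0.59 (permutation p = 0.0159, adjusted p = 0.0597) and rho was 0.41 (adjusted p = 0.347). There r was 0.17 without the 2 farthest rats, so within those rats the relation rested on these 2. The genes most like Cdkn2a were Mcm6 (r = 0.90), a helicase subunit of DNA replication, Sema7a (r = 0.89) and A2m (r = 0.85), and those most like Cdkn2b were Col18a1 (r = 0.89), which codes for a basement membrane collagen, Tmem132a (r = 0.89) and Tmed3 (r = 0.88).

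Cdkn2c (p18), the most abundant INK4 gene here at 21.7 TPM, moved little. It ranged from 17.98 to 25.02 CPM in untreated rats, 16.6 to 23.96 after i.p. ASC, 18.6 to 23.3 after i.v. ASC and 19.3 to 24.3 after ASC-derived CM. Its log2 fold changes were -0.034, 0.052 and 0.042 in that order, with edgeR adjusted p of 0.937, 0.835 and 0.980. The estimates after i.v. ASC and ASC-derived CM turned to -0.052 and -0.020 on the TPM scale. Against the endothelial score it had r = -0.56 on the log2 CPM scale (permutation p = 0.0072, adjusted p = 0.0305; rho = -0.52, adjusted p = 0.0673) and -0.044 on the TPM scale, so that relation rested on the scale. Its most alike genes were Cenps (r = 0.82), Psmc3ip (r = 0.80) and Pkig (r = 0.79).

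Mdm2, the ubiquitin ligase that marks p53 for breakdown and is itself induced by p53, was at 64.7 to 86.4 CPM in untreated rats (median 72.005), 60.1 to 74.7 after i.p. ASC (median 68.8) and 57.4 to 76.3 after i.v. ASC (median 67.9). After ASC-derived CM it was at 59.5, 56.3, 71.0 and 70.4 CPM in rats 2, 11, 19 and 21, all 4 below the untreated median, with 2 of them inside the untreated range. The log2 fold change was -0.20 (SE 0.094, edgeR adjusted p = 0.711) after ASC-derived CM, -0.13 (SE 0.084) after i.p. ASC and -0.12 (SE 0.084) after i.v. ASC. With the podocyte score as a covariate these were -0.075, -0.073 and 0.013. Like Cdkn1a, Mdm2 fell as the thick ascending limb score rose, at r = -0.76 (permutation p = 7e-05, adjusted p = 0.00168), rho = -0.81 (adjusted p = 0.00108) and r = -0.75 without the 2 farthest rats. Within the 17 rats above the podocyte gap r was -0.61 (permutation p = 0.00884, adjusted p = 0.0597; rho = -0.66, adjusted p = 0.0572). With the podocyte score Mdm2 had r = 0.73 over 22 rats (permutation p = 0.00012, adjusted p = 0.00173; rho = 0.68, adjusted p = 0.00965). Mdm2 and Cdkn1a had r = 0.67 over 22 rats (permutation p = 0.00062, adjusted p = 0.00744; rho = 0.58, adjusted p = 0.0386; r = 0.63 without the 2 farthest rats), and r = 0.51 within the 17 rats above the podocyte gap (permutation p = 0.0398, adjusted p = 0.205). Over 22 rats Mdm2 also went with the other p53 targets, at r = 0.62 (permutation p = 0.0024, adjusted p = 0.0138) and rho = 0.73 (adjusted p = 0.00456). This relation with p53 targets includes the 5 rats below the podocyte gap and was not tested within the other 17. The genes most like it were Kirrel2 (r = 0.87), a slit diaphragm gene present at 0.162 to 2.80 CPM, Wsb1 (r = 0.86) and Adap2 (r = 0.84).

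The p53 target genes other than Cdkn1a, Mdm2 and Gdf15 gave 0 calls of 23 tested genes in each comparison by edgeR, with 0, 1 and 0 at an unadjusted p below 0.05. Of these, 14 were lower after i.p. ASC (median log2 fold change -0.042), 11 after i.v. ASC (0.00086) and 16 after ASC-derived CM (-0.081). Zmat3, an RNA-binding p53 target, was at -0.16 (SE 0.063, adjusted p = 0.523) after i.v. ASC, and Gadd45a, a DNA damage gene, at -0.21 (SE 0.11, adjusted p = 0.711) after ASC-derived CM, both by edgeR.

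Lmnb1, which codes for lamin B1 of the nuclear envelope and falls in senescent cells, was at 13.7 to 18.5 CPM in untreated rats (median 15.9), 9.22 to 15.2 after i.p. ASC (median 13.1) and 10.1 to 21.02 after i.v. ASC (median 13.6). The ASC-derived CM rats 2, 11, 19 and 21 had 11.6, 16.9, 13.7 and 15.4 CPM. All 6 i.p. ASC rats were below the untreated median and 4 of them below the lowest untreated rat. The log2 fold change after i.p. ASC was -0.30 (SE 0.16, edgeR adjusted p = 0.771). A two-sided exact permutation test of log2(TPM + 1) gave p = 0.0152 for this difference, unadjusted, 1 of 27 such tests, of which 4 were below 0.05. The others below 0.05 in that test were Cdkn1a after i.v. ASC (0.0195) and after ASC-derived CM (0.0286), and Cdkn1b after i.v. ASC (0.0368). After i.v. ASC and ASC-derived CM the log2 fold changes of Lmnb1 were -0.19 (SE 0.16) and -0.15 (SE 0.17). With the podocyte score as a covariate they were -0.24, -0.054 and -0.0036 for i.p. ASC, i.v. ASC and ASC-derived CM.

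Lmnb1 rose with the cell division genes, at r = 0.73 over 22 rats (permutation p = 0.00012, adjusted p = 0.00173), rho = 0.59 (adjusted p = 0.0299) and r = 0.62 without the 2 farthest rats. Within the 17 rats above the podocyte gap r was 0.62 (permutation p = 0.0112, adjusted p = 0.0597), and it was 0.13 there without the 2 farthest rats, so within those rats it rested on these 2. The cell division score averaged 3.83 to 3.89 in the 4 groups. Of 24 tested cell division genes, 0 were called in each comparison by edgeR, 17, 15 and 16 were lower after i.p. ASC, i.v. ASC and ASC-derived CM, and the median log2 fold changes were -0.068, -0.039 and -0.038. Tyms and Tk1, which both make thymidine nucleotides for DNA synthesis, had estimates of opposite sign after i.v. ASC, at -0.35 (SE 0.15) and 0.26 (SE 0.12), with an edgeR adjusted p of 0.523 for each. Among 10 tested genes of the nuclear lamina and its receptors 0 were called, with medians of 0.012, -0.044 and -0.024. Banf1, which binds lamins and chromatin, was at 0.17 (SE 0.089) and Sun1, of the inner nuclear membrane, at -0.22 (SE 0.12) after i.v. ASC, with an edgeR adjusted p of 0.523 for each. Most like Lmnb1 were Isg20l2 (r = 0.82), Brd2 (r = 0.82) and Klrb1a (r = 0.80). With the urothelial score Lmnb1 had r = -0.49 over 22 rats (permutation p = 0.0208, adjusted p = 0.0614) and rho = -0.61 (adjusted p = 0.0211). That r was -0.17 without the 2 farthest rats.

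Gdf15, a secreted cytokine induced by p53, by the integrated stress response and by injury, was the most abundant of the 9 per length, and none of its 8 pairs with the other genes passed at an adjusted permutation p of 0.05. It ranged from 28.8 to 56.2 CPM in untreated rats (median 35.3), 29.6 to 46.2 after i.p. ASC (median 35.4) and 24.1 to 48.4 after i.v. ASC (median 39.4). After ASC-derived CM it was at 33.8, 27.6, 34.6 and 32.0 CPM in rats 2, 11, 19 and 21, all below the untreated median and 1 of them below the untreated range. The highest rat, at 56.2, was untreated rat 1, without which the log2 fold change after ASC-derived CM was -0.10. With all rats the log2 fold change was -0.25 (SE 0.19) after ASC-derived CM, -0.066 (SE 0.17) after i.p. ASC and -0.012 (SE 0.17) after i.v. ASC, with edgeR adjusted p of 0.834, 0.931 and 0.980. No marker or list score passed at an adjusted p of 0.05 with Gdf15. Its largest r over 22 rats was 0.50, with the score of 5 tubular injury genes. The genes most like it were Hs6st1 (r = 0.81), Trmt6 (r = 0.80) and Hbegf (r = 0.76), the last an EGF receptor ligand that injured tubules make. Of 12 tested genes of the integrated stress response and Gdf15 regulation 0 were called, with 1 in each comparison at an unadjusted edgeR p below 0.05. Eif2ak3, the kinase PERK, was at -0.17 (SE 0.065, edgeR adjusted p = 0.523) after i.v. ASC, and Ppp1r15a, which reverses that response, at -0.26 (SE 0.11, edgeR adjusted p = 0.711) after ASC-derived CM.

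**Figure D4:**
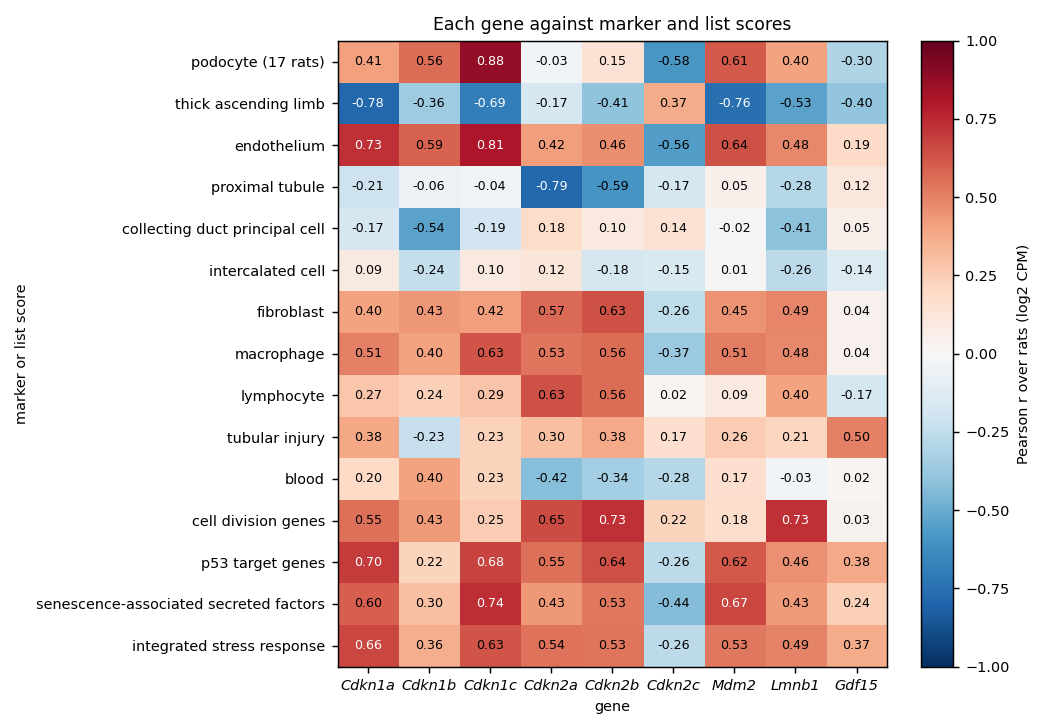
Pearson r (colour and printed value) of the log2 CPM of each of the 9 genes (columns) with the mean log2 CPM of marker lists and gene lists (horizontal bands), over 22 rats, or over the 17 rats above the gap for the podocyte score. The urothelial score is not shown. Cdkn1c has 0.88 with podocyte genes, Cdkn1a and Mdm2 have -0.78 and -0.76 with the thick ascending limb, Cdkn2a has -0.79 with the proximal tubule, and Gdf15 reaches no more than 0.50. The podocyte band covers fewer rats than the other bands, so their values are not directly comparable. Over 22 rats r with podocyte genes, not shown, is 0.95 for Cdkn1c, 0.79 for Cdkn1a, 0.73 for Mdm2 and -0.67 for Cdkn2c. Within the 17, the thick ascending limb has -0.63 and -0.61 with Cdkn1a and Mdm2.

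The partners of these inhibitors and the secreted factors also gave no calls. Of 8 tested other inhibitors and pocket proteins 0 were called by edgeR, with median log2 fold changes of 0.057, 0.015 and -0.0071 after i.p. ASC, i.v. ASC and ASC-derived CM. Rbl2, the pocket protein p130 of resting cells, was at 0.11 (SE 0.068) after ASC-derived CM, with an edgeR adjusted p of 0.747. Rb1, the retinoblastoma gene, was at -0.10 (SE 0.065) after i.v. ASC, with an adjusted p of 0.540. Of 13 tested G1 cyclins, kinases and E2F factors 0 were called, with medians of -0.028, -0.039 and 0.016. Cdk4, the kinase that INK4 proteins bind, was at -0.16 (SE 0.080, edgeR adjusted p = 0.711) after ASC-derived CM, and Ccnd3, its partner cyclin D3, at 0.097 (SE 0.045, edgeR adjusted p = 0.523) after i.v. ASC. Of 20 tested senescence-associated secreted factors 0 were called, 16, 11 and 14 were lower, and the medians were -0.11, -0.071 and -0.22, further below 0 than the medians of all genes given above. Igfbp7, an insulin-like growth factor binding protein, was at 953 to 1489 CPM after i.v. ASC and at 1261 to 1629 CPM in untreated rats, with a log2 fold change of -0.26 (SE 0.11, edgeR adjusted p = 0.523). Its relative Igfbp5 was at -0.50 (SE 0.23, edgeR adjusted p = 0.523). Over 22 rats the mean of the secreted factors went with Cdkn1c at r = 0.74 (permutation p = 0.00011, adjusted p = 0.00173; rho = 0.62, adjusted p = 0.0211) and with Cdkn1a at r = 0.60 (permutation p = 0.00358, adjusted p = 0.0198; rho = 0.49, adjusted p = 0.0918). It went with Mdm2 at r = 0.67 (permutation p = 0.00069, adjusted p = 0.00639) and rho = 0.83 (adjusted p = 0.00048), and with Cdkn2b at r = 0.53 (permutation p = 0.0117, adjusted p = 0.0391; rho = 0.37, adjusted p = 0.217). These 4 relations include the 5 rats below the podocyte gap.

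Single rats stood out across several of the 9 genes. Untreated rat 1 was among the 3 highest rats for 6 genes and among the 3 lowest for 0. Untreated rat 22 was among the 3 highest for 4. The i.v. ASC rat 3 was among the 3 lowest for 6 genes and ASC-derived CM rat 2 for 4, and neither was among the 3 highest for any. The podocyte scores of the latter pair, 4.46 and 4.32, were among the 5 below the gap. Untreated rat 1, at 5.86, was not set apart by that score, and it had the highest cell division score of all rats, 4.20.

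**Figure D5:**
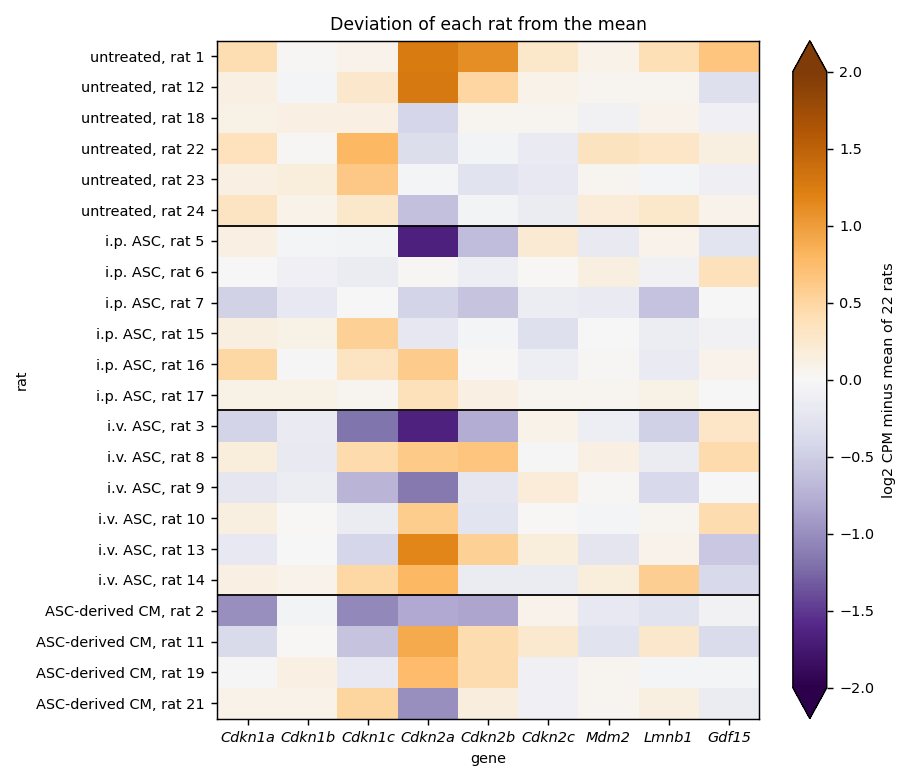
Deviation of each of 22 rats (vertical axis, ordered by group, with lines between groups) from the mean of all rats on the log2 CPM scale, for the 9 genes. Cdkn2a and Cdkn2b are high together in untreated rat 1 and low together in i.v. ASC rat 3, while Cdkn1b and Cdkn2c stay near 0 in every rat.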

How the data were processed

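RNA of the left kidney was sequenced by the authors on the BGISEQ-500 platform. The submitters' processing notes name Trim Galore 0.6.4, kallisto 0.4.6 and the rat build rn6, and the methods of the study name DESeq2. For each of 22 rats the authors deposited an estimated count per gene, not normalized, and a TPM value, in which counts are divided by transcript length and brought to a common total. Groups came from the labels, and rats of different groups are different animals.

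The 9 genes, the gene lists and the marker lists were chosen with earlier results of these data known. Symbols were matched for 17179 of 17334 genes through a RefSeq table (GRCr8). Estimated counts were rounded, since 14.1% were not whole, and entered 1 fit over all 4 groups by the quasi-likelihood method of edgeR 4.0.16 (R 4.3.3), with TMM factors, its filterByExpr filter (12867 genes left), a threshold of 0.05 and p-values adjusted by Benjamini-Hochberg. For log2 CPM a prior count of 2 was added. The edgeR, DESeq2 and limma fits were tested on simulated data. The genes named were the 9, in each list the 2 with the smallest unadjusted p in any comparison, and for each of the 9 the 3 with the highest r after centring on group means. Correlations over rats used 100000 permutations, two-sided, and a score is the mean log2 CPM of a list. Scores of the 4 gene lists used in correlations, the gap in the podocyte score, the correlations within 17 rats and the promoter motifs were chosen after seeing the data.

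Other settings tried were RLE size factors, DESeq2 1.42.0, a fit with no filter, at least 10 counts in every rat, only the 2 groups compared, limma 3.58.1 on log2(TPM + 1) and log2(TPM + 0.1), 1 surrogate variable (sva 3.50.0), the proximal tubule score as a covariate, an exact permutation test, leaving out each rat and, added after seeing the data, the podocyte score as a covariate.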

Additional observations from a re-analysis of the deposited data

How the results depend on the processing

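Across 600 other fits of the 27 log2 fold changes of the 9 genes, 551 kept their direction and their side of the threshold, 45 changed sign, and 4 passed an unadjusted threshold in the exact permutation test. No other fit called any of the 9 at an adjusted p below 0.05, and 13 of the 27 values never changed sign. Every sign change was of an estimate within 2 standard errors of 0. With 1 surrogate variable they were Cdkn1a at 0.014 and Cdkn1c at 0.047 after i.p. ASC, Cdkn2a at 0.33, Cdkn2b at 0.028, Cdkn2c at -0.021 and Gdf15 at 0.048 after i.v. ASC, and Cdkn1b at 0.019, Cdkn2a at 0.24, Cdkn2b at 0.085 and Cdkn2c at -0.027 after ASC-derived CM. With the podocyte score they were Cdkn1c at 0.0023 after i.p. ASC, Cdkn1c at 0.0036, Cdkn2a at 0.065, Cdkn2c at -0.10 and Mdm2 at 0.013 after i.v. ASC, and Cdkn1b at 0.043 and Cdkn2c at -0.098 after ASC-derived CM. With the proximal tubule score it was Cdkn2a at 0.12 after ASC-derived CM. On log2(TPM + 1), by limma and in the permutation test, it was Cdkn2c at -0.052 after i.v. ASC and -0.020 after ASC-derived CM, and on log2(TPM + 0.1) at -0.054 and -0.021. Leaving out each rat in turn gave ranges across 0 for Cdkn2c (-0.088 to 0.032) and Gdf15 (-0.15 to 0.081) after i.p. ASC, Cdkn2a (-0.29 to 0.25) and Gdf15 (-0.094 to 0.13) after i.v. ASC, and Cdkn1b (-0.047 to 0.0045), Cdkn2a (-0.58 to 0.075), Cdkn2b (-0.29 to 0.073) and Cdkn2c (-0.027 to 0.11) after ASC-derived CM. Of all genes, DESeq2 called 22 after i.v. ASC and 5 after ASC-derived CM, the fit of only 2 groups called 1 after ASC-derived CM, and leaving out a rat gave 0 to 14 after i.v. ASC, with 11 without rat 8 and 14 without rat 14. Without i.v. ASC rat 9, which enters the shared fit, 2 genes were called after ASC-derived CM. The cause was not tested. Depth limits Cdkn2a, with 3 to 43 counts a rat. No paired analysis was possible because no animal number occurs in 2 groups.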
